A study of Mus musculus with 18 samples.

Results

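The genes described here make triglyceride, coat and shape lipid droplets, or break triglyceride down again. They are the 10 mouse genes Plin2, Plin3, Plin4, Dgat1, Dgat2, Bscl2, Pnpla2, Abhd5, Lipe and Mgll, found by their symbols among the 25239 symbols of the deposited count table. All 10 were present and all 10 passed the filter on low counts. The study sequenced RNA along the passage of mouse cells from primed to naive pluripotency, in 18 libraries that fall into 6 groups of 3. EpiSC, labelled primed stem cells, were its starting point at day 0, and D3, D5 and D8, labelled transient, were cells at days 3, 5 and 8. rES, labelled naive stem cells, were the cells at its end, and ESC, labelled mESC, were mouse embryonic stem cells. The labels name no strain, genotype, treatment, cell line or culture condition for any group. Nor do they say whether replicates were grown separately, so the p-values reflect only how far these libraries spread, which may be technical.

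Cells store fatty acids as triglyceride in droplets that bud from the endoplasmic reticulum under a coat of perilipins. DGAT1 and DGAT2 add the last acyl chain to diacylglycerol, and seipin, the product of Bscl2, shapes the sites where droplets bud. Breakdown runs in steps: PNPLA2 (ATGL), switched on by ABHD5, removes the first chain, hormone-sensitive lipase (Lipe) acts on diacylglycerol, and monoacylglycerol lipase (Mgll) frees the last fatty acid and glycerol.

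Libraries held 58.4 to 102 M (megacounts), the deepest being D8 replicate 2, and 17545 genes were tested. Levels are in CPM, counts relative to the TMM-scaled library size, given as mean ± SD of 3 libraries. Differences are log2 values ± standard error, and a gene was called when its adjusted p in edgeR's quasi-likelihood test (Benjamini-Hochberg over all genes tested) was under 0.05. The 9 naive markers summed to 56.9 to 63.2 CPM in EpiSC, with Zfp42 and Nr0b1 at 0, to 899 to 1618 CPM at D8 and to 4024 to 4378 CPM over rES and ESC. The 7 primed markers summed to 1974 to 2159 CPM in EpiSC and 66.8 to 251 CPM elsewhere. Markers of other cell types moved too. The 8 trophoblast markers summed to 13.0 to 19.4 CPM in EpiSC (Cdx2 at 0), 1252 to 1390 at D3, 814 to 875 at D5, 652 to 803 at D8, 176 to 183 in rES and 102 to 108 CPM in ESC (Hand1 at 0), and 8, 7 and 7 of them were called higher at D3, D5 and D8 than in EpiSC. Eomes was called lower at D5 and D8, at 0.474 and 1.85 CPM against 9.89 CPM in EpiSC. Cdx2 had 30.8 CPM at D3 but 1.77 and 1.65 CPM at D5 and D8. The largest parts of the D8 sum were Krt7, at 403 CPM, and Tfap2c, at 180 CPM. In rES the sum was mainly Tfap2c, at 164 CPM. The 8 fibroblast markers summed to 31.3 to 47.4 CPM in EpiSC, 501 to 656 at D3, 802 to 889 at D5, 1011 to 1685 at D8, 17.4 to 19.4 in rES (Dcn at 0) and 132 to 175 CPM in ESC, with 7 of 8 called higher at each of the 3 days. Thy1 was called lower at D5 and D8, at 2.34 and 1.32 CPM against 10.55 CPM in EpiSC. The D3 sum was mainly Col1a1, at 404 CPM, with Postn, Dcn and Lum at 0.887, 1.35 and 0.725 CPM. In ESC the sum was mainly Col1a1 and Col1a2, at 79.2 and 36.5 CPM. The 6 primitive endoderm markers summed to 1.89 to 3.47 CPM in EpiSC, 44.9 to 71.6 CPM over D3, D5 and D8 and 6.84 to 15.6 CPM over rES and ESC. Of these, 6, 5 and 5 were called higher at D3, D5 and D8.

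Fat cell markers, by contrast, were near 0: the 6 together reached at most 2.44 CPM in any library, and Lep was at 0 in all 18. Of these 6, Plin1 and Cidec also belong to the wider pathway list below. The 4 macrophage markers summed to 3.90 to 4.09 CPM in EpiSC, 17.6 to 21.9 at D3, 88.2 to 96.9 at D5, 196 to 274 at D8 and 2.73 to 5.37 CPM over rES and ESC, with 1, 2 and 2 of them called higher at D3, D5 and D8 than in EpiSC. At D8 that sum was mainly Csf1r, 218 CPM on average, with Cd68 at 20.7 CPM; in EpiSC, rES and ESC it was mainly Cd68, at 3.56, 5.08 and 3.47 CPM. Ptprc and Adgre1, which define blood cells and macrophages, did not pass a mean of 0.251 CPM in any group. The trophoblast, fibroblast and endoderm sums and the Csf1r level were high on the same days as most droplet genes, though not every marker was. The part of these levels in the results below was not tested. In bulk RNA, fewer cells of a type and less RNA per cell cannot be told apart.

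The promoters of 6 of the genes are shown: the 3 coats, the lipase Pnpla2 and its activator Abhd5, and Bscl2. The 6 do not share 1 pattern of levels. Bscl2 was lower in every other group than in EpiSC. Over the 18 libraries its log2 CPM correlated with that of the others shown at Pearson r = -0.51 to 0.32. The promoter reference used held no entry for Dgat1 or Dgat2. Each stretch shown is the 140 bases before a RefSeq transcription start, read 5′ to 3′ on the gene's strand on GRCm38.p6. That of Plin3 lies wholly inside the gene span given below. For Bscl2 only the first of its 3 promoters is shown. Capitals mark GC boxes (GGGCGG or its reverse complement) and CCAAT boxes (CCAAT or its reverse complement).
Plin2, chr4:86670060-86670199, minus strand: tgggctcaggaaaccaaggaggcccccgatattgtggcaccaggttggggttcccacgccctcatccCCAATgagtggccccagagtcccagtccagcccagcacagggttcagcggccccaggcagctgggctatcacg
Plin3, chr17:56290512-56290651, minus strand: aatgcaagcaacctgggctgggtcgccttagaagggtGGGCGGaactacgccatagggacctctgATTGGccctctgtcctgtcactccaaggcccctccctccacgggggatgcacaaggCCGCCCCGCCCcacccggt
Plin4, chr17:56109783-56109922, minus strand: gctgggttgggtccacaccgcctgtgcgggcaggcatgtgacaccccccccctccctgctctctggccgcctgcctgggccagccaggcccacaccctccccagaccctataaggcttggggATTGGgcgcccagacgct
Pnpla2, chr7:141455048-141455187, plus strand: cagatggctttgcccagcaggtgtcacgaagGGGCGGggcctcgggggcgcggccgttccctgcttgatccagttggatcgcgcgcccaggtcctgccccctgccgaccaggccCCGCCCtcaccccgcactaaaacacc
Abhd5, chr9:122351476-122351615, plus strand: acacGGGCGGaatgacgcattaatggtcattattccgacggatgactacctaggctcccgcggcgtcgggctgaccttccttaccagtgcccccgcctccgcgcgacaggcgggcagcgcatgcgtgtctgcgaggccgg
Bscl2, chr19:8837327-8837466, plus strand: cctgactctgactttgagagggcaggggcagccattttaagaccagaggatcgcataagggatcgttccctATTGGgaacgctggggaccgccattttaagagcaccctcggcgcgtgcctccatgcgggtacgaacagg

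In these stretches the 3 coat genes and Bscl2 each had a CCAAT box, and Plin3, Pnpla2 and Abhd5 had GC boxes. The 2 GC boxes nearest the start of Plin3 overlap. RefSeq gave 12 promoters for 8 of the 10 genes, and over windows from 250 bases before to 50 after the start, on both strands, 8 of the 12 held GGGCGG and 4 held CCAAT, against 35.66% and 37.41% of all 32851 promoters. The E-box CACGTG was in 3 of 12, those of Plin2, Mgll and Lipe, against 7.15% of all, and in Plin2 it spans the start. The nuclear receptor letters AGGTCA was in 3 of 12 against 16.26%. The forkhead letters TGTTTAC were in 2 (3.65% of all), TTCNNNGAA, bound by STAT factors, was in 1 (8.298%), and neither TATAAA (13.62%) nor TCAAGGTCA, bound by ESRRB and containing AGGTCA (0.4231%), was in any. All windows except those of Bscl2 promoters 2 and 3 were above the median of all promoters, 52.7% GC, and reached 72.3%. The part of this base content in the share with GC boxes was not tested. The windows of Mgll overlap each other. These matches describe letters in a window.

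**Figure D1:**
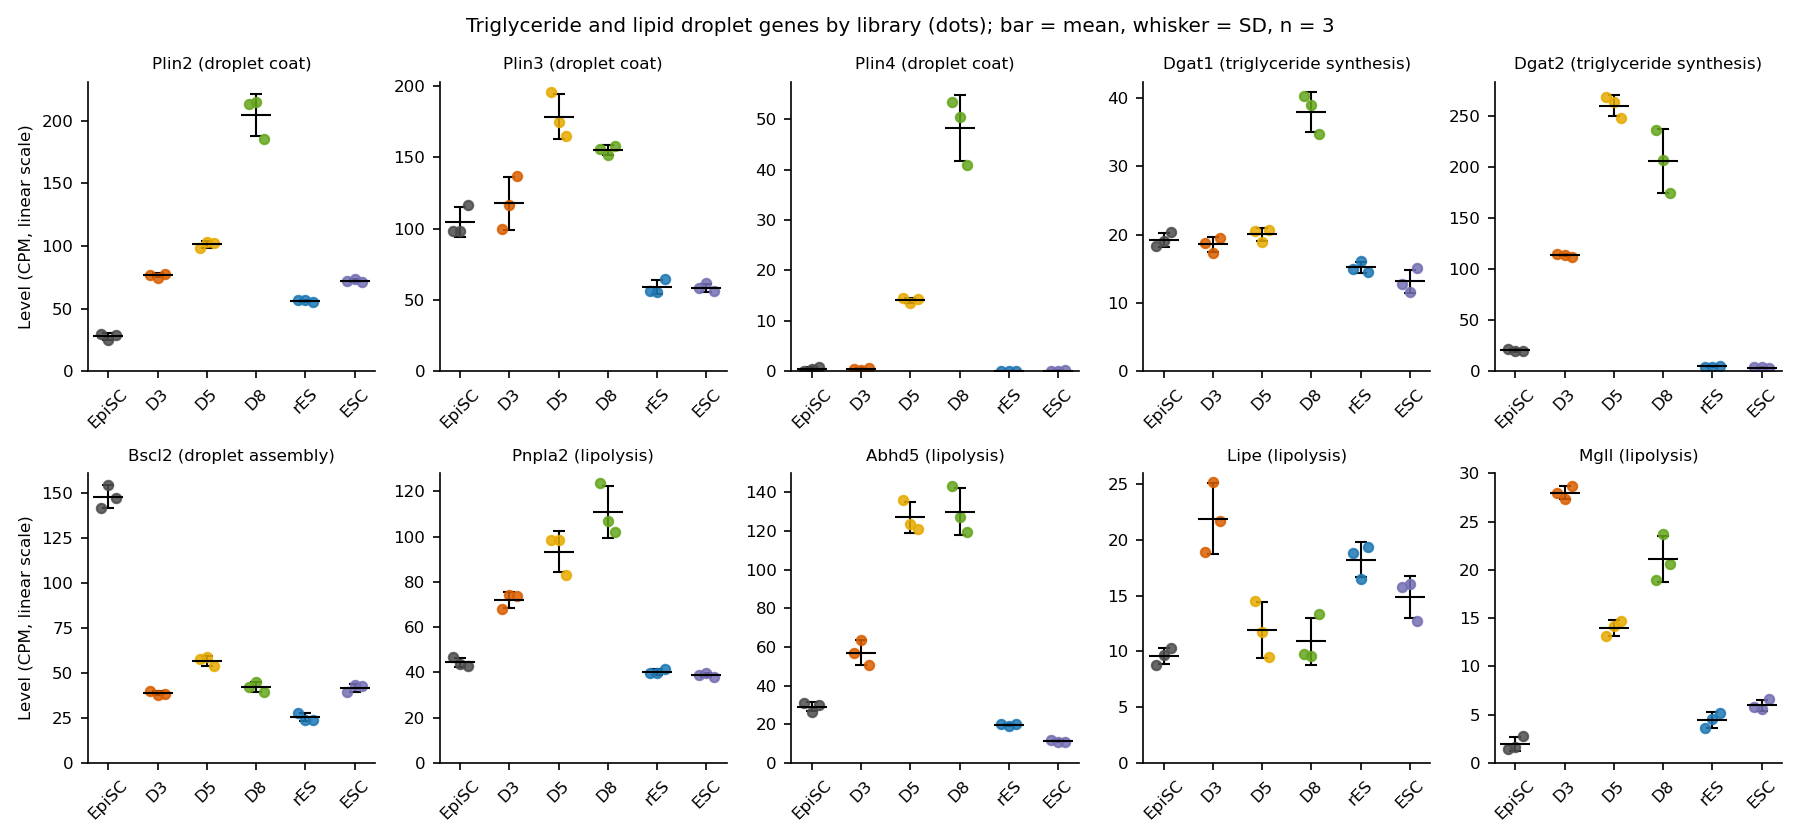
Level of each of the 10 genes in CPM (linear axis from 0, with its own range in each panel) by group, with 1 dot per library, a bar at the mean of 3 and whiskers of 1 SD. Plin2, Plin3, Plin4, Dgat2, Pnpla2 and Abhd5 are highest at D5 or D8, Bscl2 is highest in EpiSC, and Plin4 is close to 0 outside D5 and D8.

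Plin2 (chr4:86648386-86670060, minus strand, GRCm38) encodes the general droplet coat, a protein that is degraded when it is not bound to a droplet. Its level was 30.0, 24.7 and 29.2 CPM in the EpiSC libraries, 77.2, 74.8 and 77.8 CPM at D3, 98.5, 103 and 102 CPM at D5, 214, 215 and 185 CPM at D8, 56.6, 56.8 and 55.5 CPM in rES and 72.0, 74.0 and 71.4 CPM in ESC. No library of another group came down to an EpiSC library, and the 3 D8 libraries stood above all others. Against EpiSC the log2 difference was 1.45 ± 0.07 at D3 (adjusted p = 1.05e-11), 1.86 ± 0.08 at D5 (1.91e-13) and 2.87 ± 0.08 at D8 (9.04e-16). rES and ESC were also above EpiSC, by 1.01 ± 0.07 (9.83e-10) and 1.37 ± 0.07 (1.61e-11). Between D8 and rES the level dropped by 1.86 (1.92e-13), and rES was lower than ESC by a log2 difference of -0.36 (0.000881). D3 and ESC, next to each other in the order of levels, were not called different (adjusted p = 0.337).

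Plin4 (chr17:56100591-56109803, minus strand), a coat known mainly from fat tissue and muscle, was the gene that was nearly off outside D5 and D8. Its deposited counts were 6, 28 and 51 in EpiSC, 34, 23 and 45 at D3, 904, 830 and 845 at D5, 3278, 4953 and 2605 at D8, 4, 0 and 5 in rES and 8, 0 and 20 in ESC. That is 14.5, 13.6 and 14.2 CPM at D5 and 53.4, 50.4 and 40.9 CPM at D8, against 0.0963, 0.444 and 0.794 CPM in EpiSC. EpiSC replicate 1 was under the floor of 12 counts. The D5 and D8 libraries lay far above every other library. The log2 difference from EpiSC was 4.97 ± 0.47 at D5 (adjusted p = 2.59e-08) and 6.75 ± 0.50 at D8 (6.32e-10), and D8 exceeded D5 by 1.77 ± 0.37 (0.000746). Without EpiSC replicate 3 the differences from EpiSC were 5.69 at D5 (4.78e-08) and 7.47 at D8 (2.17e-09). D3 was not called different from EpiSC (0.766). All rES libraries lay under the floor of 12 counts, which is 0.170 to 0.200 CPM in the rES and ESC libraries, as did 2 of 3 ESC libraries, so their levels, 0.0467 and 0.139 CPM on average against 0.445 CPM in EpiSC, give no usable fold. Both were called lower than EpiSC (adjusted p = 0.0023 for rES and 0.0381 for ESC). The ESC call was lost without ESC replicate 1 (adjusted p = 0.0834) or 2 (0.13), without EpiSC replicate 2 (0.0667) or 3 (0.287), with RLE scaling (0.0516), with DESeq2 (0.0829) and with only these groups fitted (0.216).

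Plin3 (chr17:56277476-56292873, minus strand) encodes a coat that is stable in the cytosol and moves onto new droplets. It ranged less widely: 104 ± 10.5 CPM in EpiSC, 118 ± 18.5 at D3, 178 ± 15.9 at D5, 155 ± 3.40 at D8, 58.9 ± 5.06 in rES and 58.7 ± 2.81 in ESC. Its 3 D5 libraries, 165 to 196 CPM, were above all other libraries, though D8 was not called different from D5 (log2 difference -0.20, adjusted p = 0.115), and the rES and ESC libraries, 55.6 to 64.7 CPM, were below all others. The log2 difference from EpiSC was 0.77 ± 0.10 at D5 (adjusted p = 2.15e-06), 0.57 at D8 (6.76e-05), -0.82 in rES (1.35e-06) and -0.83 in ESC (1.33e-06). D3 overlapped EpiSC and was not called (log2 difference 0.18, 0.144); it was called without D3 replicate 1 (0.0201) or without EpiSC replicate 3 (0.048). Per kilobase of exon, the level of Plin2 over that of Plin3 was 0.520 ± 0.0614 in EpiSC, 1.28 ± 0.201 at D3, 1.10 ± 0.118 at D5, 2.55 ± 0.255 at D8, 1.85 ± 0.174 in rES and 2.39 ± 0.0721 in ESC. Plin3 was thus the more abundant of these coats per length in EpiSC and Plin2 in the other groups, apart from 1 D5 library at 0.971. All 3 libraries of each other group exceeded the 3 EpiSC libraries in this ratio (two-sided exact permutation p = 0.1, the smallest that 3 against 3 allows).

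Dgat2 (chr7:99153658-99182719, minus strand) changed more widely than Dgat1. It had 22.1, 20.4 and 19.6 CPM in EpiSC, 115, 114 and 112 CPM at D3, 268, 263 and 248 CPM at D5, 236, 206 and 174 CPM at D8, 4.53, 4.73 and 5.07 CPM in rES and 4.24, 3.86 and 2.97 CPM in ESC. No 2 groups overlapped, so Dgat2 separated all 6 groups: D5 highest, then D8, D3, EpiSC, rES and ESC. It rose against EpiSC by a log2 difference of 2.46 ± 0.11 at D3 (adjusted p = 1.97e-12), 3.65 ± 0.12 at D5 (8.85e-15) and 3.31 at D8 (2.06e-14). In rES and ESC it was below the EpiSC level, at -2.11 ± 0.12 (1.81e-11) and -2.49 ± 0.12 (2.85e-12). rES lay at -5.43 ± 0.13 against D8 (3.76e-16), the largest difference of the 10 genes between those groups after that of Plin4. D8 was lower than D5 by a log2 difference of -0.34 (0.013), a call lost without D8 replicate 3 (0.0673). rES was higher than ESC by 0.38 (0.0243), a call lost without ESC replicate 3 (log2 difference 0.24, 0.148), rES replicate 2 (0.0519) or rES replicate 3 (0.0887), with counts divided by 4 (0.0514) and with only these groups fitted (0.0805).

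Dgat1 (chr15:76502015-76511953, minus strand), which makes the same product by an unrelated protein, stayed within a narrow band except at D8. It had 19.2 ± 1.04 CPM in EpiSC, 18.6 ± 1.10 at D3, 20.0 ± 1.00 at D5, 38.0 ± 2.95 at D8, 15.2 ± 0.787 in rES and 13.1 ± 1.74 in ESC. The D8 libraries, 34.6 to 40.3 CPM, were above every other library, and D3 and D5 overlapped EpiSC. D8 exceeded EpiSC by 0.98 ± 0.10 (adjusted p = 7.74e-08), while D3 (-0.05, 0.693) and D5 (0.06, 0.631) were not called. rES and ESC were lower than EpiSC by log2 differences of -0.34 (0.00743) and -0.55 (0.000132). The rES call was lost with RLE scaling (-0.19, 0.11), DESeq2 (-0.20, 0.102) and only these groups fitted (-0.17, 0.0971). rES and ESC were not called different (0.124), but were without ESC replicate 3 (0.0325).

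The balance of these synthesis enzymes turned over along the way. Per kilobase of exon, Dgat2 over Dgat1 was 1.01, 0.894 and 0.803 in EpiSC, 5.09, 5.47 and 4.80 at D3, 10.9, 11.64 and 10.04 at D5, 4.90, 4.42 and 4.19 at D8, 0.252, 0.245 and 0.290 in rES and 0.278, 0.276 and 0.164 in ESC. RNA of the enzymes was near parity in primed cells, mostly Dgat2 during the transition and mostly Dgat1 in naive cells. The groups did not overlap in any of the 9 comparisons (exact permutation p = 0.1, the smallest possible) except rES against ESC (0.8).

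**Figure D2:**
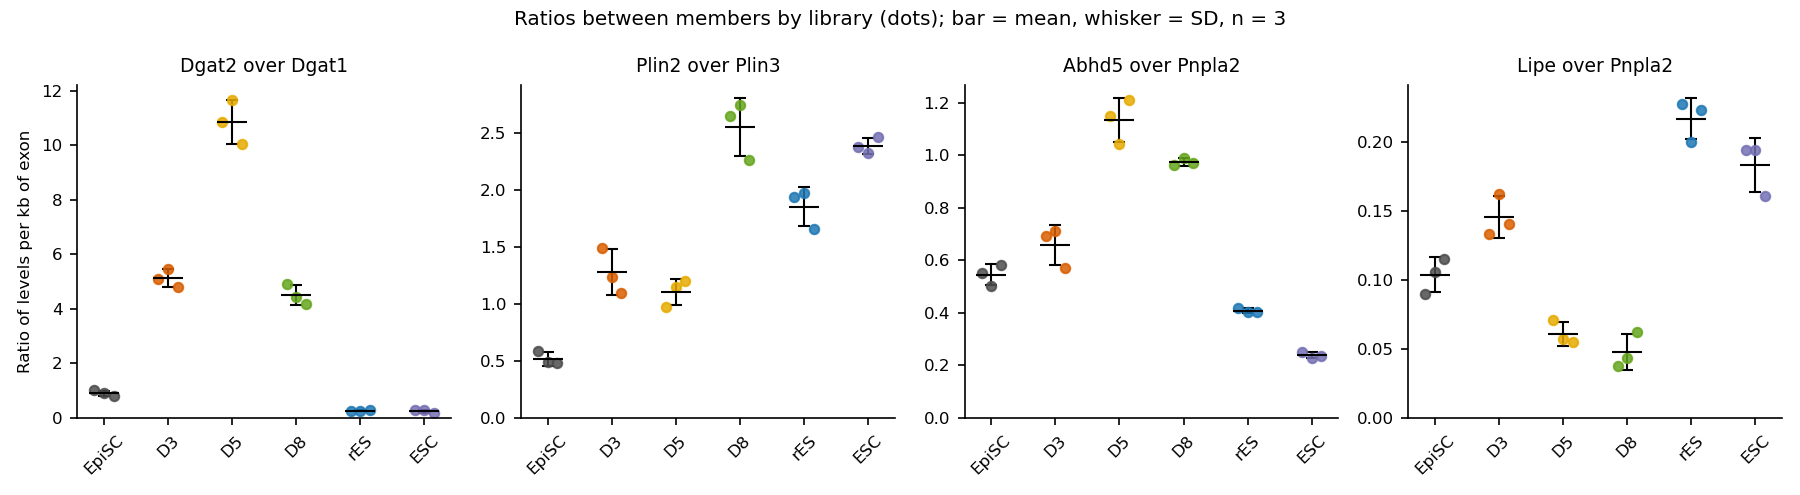
Ratios of levels per kilobase of exon (linear axis from 0) by group, with 1 dot per library, a bar at the mean of 3 and whiskers of 1 SD: Dgat2 over Dgat1, Plin2 over Plin3, Abhd5 over Pnpla2 and Lipe over Pnpla2. Dgat2 over Dgat1 averages 10.8 at D5 against 0.901 in EpiSC, and the mean of Lipe over Pnpla2 is lowest at D8 and highest in rES.

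Bscl2 (chr19:8837467-8848683, plus strand) was the one gene of the 10 called lower than in EpiSC at D3, D5 and D8. Its level was 142, 155 and 147 CPM in EpiSC, 39.9, 37.8 and 38.4 CPM at D3, 57.5, 58.9 and 53.6 CPM at D5, 42.3, 44.7 and 39.1 CPM at D8, 27.8, 24.1 and 23.8 CPM in rES and 39.3, 43.1 and 42.7 CPM in ESC. Every library of the other groups had less than EpiSC, with no overlap, and the drop was already there at D3. Against EpiSC the log2 difference was -1.93 ± 0.08 at D3 (adjusted p = 3.96e-13), -1.38 at D5 (1.2e-11), -1.81 at D8 (3.07e-13), -2.55 in rES (8.32e-15) and -1.83 in ESC (5.28e-13). D5 was higher than D3 by 0.55 (5.75e-06), and D8 was lower than D5 by -0.43 (0.000136). rES was lower than D8 by -0.74 (8.84e-08) and lower than ESC by -0.72 (1.4e-06). One limit touches these values: 398 exonic bases of Bscl2, 17.6% of its exons, overlap those of Gng3 on the opposite strand, and the strand setting of the counting is not given in the sources used here. Gng3, a G protein gamma subunit gene, had 213 ± 12.8 CPM in EpiSC, 15.8 ± 2.49 at D3, 5.96 ± 0.352 at D5, 3.98 ± 0.545 at D8, 3.76 ± 0.454 in rES and 30.2 ± 2.38 CPM in ESC, so both genes were highest in EpiSC, while at D5 against D3 the mean of Gng3 was lower and that of Bscl2 higher. Reads in the shared bases cannot be told apart. Another 239 bases are shared with AC129217.1 on the same strand.

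Pnpla2 (chr7:141455198-141460743, plus strand), the first lipase, had 46.8, 43.9 and 42.7 CPM in EpiSC, 68.0, 74.4 and 73.8 CPM at D3, 98.5, 98.6 and 83.2 CPM at D5, 124, 107 and 102 CPM at D8, 39.6, 39.5 and 41.6 CPM in rES and 39.0, 39.6 and 37.9 CPM in ESC. The transition libraries were all above the EpiSC, rES and ESC libraries. It rose by log2 differences of 0.70 ± 0.08 at D3 (adjusted p = 6.27e-07), 1.07 at D5 (1.26e-09) and 1.32 at D8 (6.18e-11) against EpiSC, and rES lay at -1.46 against D8 (2.18e-11). rES was not called different from EpiSC (-0.14, 0.127). ESC was called lower than EpiSC (-0.20, 0.043), a call lost with RLE scaling (-0.08, 0.399), DESeq2 (-0.09, 0.395), only these groups fitted (-0.07, 0.411) or no filter on low counts (0.0542), and without ESC replicate 1 (0.0828), 2 (0.0655) or 3 (0.112) or EpiSC replicate 1 (0.15) or 2 (0.0703). D8 exceeded D5 by 0.25 (0.0176), a call lost without D5 replicate 3 (0.115) or D8 replicate 1 (log2 difference 0.16, 0.116) and with only these groups fitted (0.0778).

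Abhd5 (chr9:122351608-122381524, plus strand), the activator of PNPLA2, changed over a wider range than its partner. It had 31.1, 26.6 and 29.8 CPM in EpiSC, 56.8, 63.6 and 50.6 CPM at D3, 136, 124 and 121 CPM at D5, 143, 127 and 119 CPM at D8, 20.0, 19.2 and 20.2 CPM in rES and 11.8, 10.9 and 10.7 CPM in ESC. D5 and D8 overlapped and were not called different (adjusted p = 0.805); the other neighbours in its order, D3, EpiSC, rES and ESC, were all separate. The log2 difference from EpiSC was 0.97 ± 0.09 at D3 (4.3e-08), 2.12 at D5 (6.22e-13), 2.16 at D8 (4.66e-13), -0.56 in rES (3.32e-05) and -1.39 ± 0.10 in ESC (4.17e-10), and rES was higher than ESC by 0.83 (3.65e-06). Per kilobase of exon, Abhd5 over Pnpla2 was 0.546 ± 0.0394 in EpiSC, 0.659 ± 0.0775 at D3, 1.14 ± 0.0849 at D5, 0.975 ± 0.0137 at D8, 0.409 ± 0.00939 in rES and 0.239 ± 0.0124 in ESC. Activator and lipase were thus near parity at D5 and D8 only. D3 overlapped EpiSC in this ratio (exact permutation p = 0.2), and the groups did not overlap in the other 8 comparisons (0.1, the smallest possible). An antisense transcript, A730085K08Rik, shares 950 exonic bases with Abhd5 but averaged at most 0.631 CPM in any group.

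Lipe (chr7:25379527-25398710, minus strand) ranked between 7 and 10 of the 10 genes in level per kilobase of exon in every group. It had 9.57 ± 0.744 CPM in EpiSC, 21.9 ± 3.14 at D3, 11.9 ± 2.52 at D5, 10.9 ± 2.10 at D8, 18.2 ± 1.54 in rES and 14.8 ± 1.87 in ESC. It was called higher at D3 than in EpiSC (log2 difference 1.20 ± 0.17, adjusted p = 5.51e-06), and higher in rES (0.93, 7.97e-05) and ESC (0.63, 0.00275), while D5 (0.32, 0.0982) and D8 (0.19, 0.315) were not called; D5 was called without D5 replicate 3 (0.0259). None of the 5 pairs of neighbours in its order of levels was called. rES was higher than D8 by 0.74 (0.000619), the only one of the 10 genes called higher in that comparison. rES against ESC was not called (0.181), but was with only these groups fitted (0.0346). Lipe over Pnpla2, per kilobase of exon, was 0.103 in EpiSC, 0.145 at D3, 0.0607 at D5, 0.0478 at D8, 0.217 in rES and 0.183 in ESC. Each other group lay apart from EpiSC in this ratio (exact permutation p = 0.1, the smallest possible), while D8 and D5 overlapped (0.3). An antisense transcript that shares 861 exonic bases with Lipe, 4732471J01Rik, averaged at most 0.510 CPM in any group.

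Mgll (chr6:88724412-88828360, plus strand), which ends the pathway and also breaks down the signalling lipid 2-arachidonoylglycerol, had 1.44, 1.63 and 2.77 CPM in EpiSC, 27.9, 27.3 and 28.7 CPM at D3, 13.1, 14.2 and 14.7 CPM at D5, 19.0, 23.7 and 20.6 CPM at D8, 3.58, 4.59 and 5.19 CPM in rES and 5.77, 5.54 and 6.61 CPM in ESC. Its mean was highest at D3, and every library of the other groups was above the EpiSC libraries. The log2 difference from EpiSC was 3.84 ± 0.21 at D3 (adjusted p = 1.69e-11), 2.84 at D5 (3.57e-10), 3.43 at D8 (2.69e-11), 1.19 in rES (3.27e-05) and 1.61 in ESC (9.05e-07). D5 was lower than D3, 13.98 against 27.97 CPM (0.000109), and D8 higher than D5 by 0.59 (0.0108), a call lost without D8 replicate 2 (0.0527). rES and ESC were not called different (0.0894).

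Set against the whole table, the counts of these genes read as follows. Between D3 and EpiSC, 6 were higher (34.1% of all genes tested were), 1 was lower (30.2%) and the median log2 difference was 0.83, against 0.00 over all genes. At D5, 7 were higher than in EpiSC (37.7%) and 1 lower (34.3%), with a median of 1.46 against 0.02. At D8, 8 were higher (42.4%) and 1 lower (34.5%), with a median of 1.74 against 0.19. Bscl2 was the one lower gene on all 3 days. rES had 3 higher than EpiSC, Plin2, Lipe and Mgll (31.9%), and 6 lower (37.5%), with a median of -0.45 against -0.09. ESC had the same 3 higher (31.2%) and the other 7 lower (36.1%), with a median of -0.69 against -0.07. Several of these ESC differences were small: 8 or 9 of the 10 were called when any single ESC or EpiSC library was left out. These comparisons share the EpiSC libraries.

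From step to step the turns differed in timing. D5 against D3 had 7 higher (29.9%) and 2, Lipe and Mgll, lower (29.6%), with a median log2 difference of 0.48. D8 against D5 had 5 higher, Plin2, Plin4, Dgat1, Pnpla2 and Mgll (25.1%), and 2 lower, Dgat2 and Bscl2 (22.0%), with a median of 0.14 against 0.05 over all genes. rES against D8 had 9 lower (38.4%) and 1 higher (32.7%), with a median log2 difference of -1.66 against -0.09 over all genes. rES against ESC had 2 higher, Dgat2 and Abhd5 (15.6%), and 2 lower, Plin2 and Bscl2 (17.9%). In that comparison 6 genes were not called, and the median was 0.03.

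**Figure D3:**
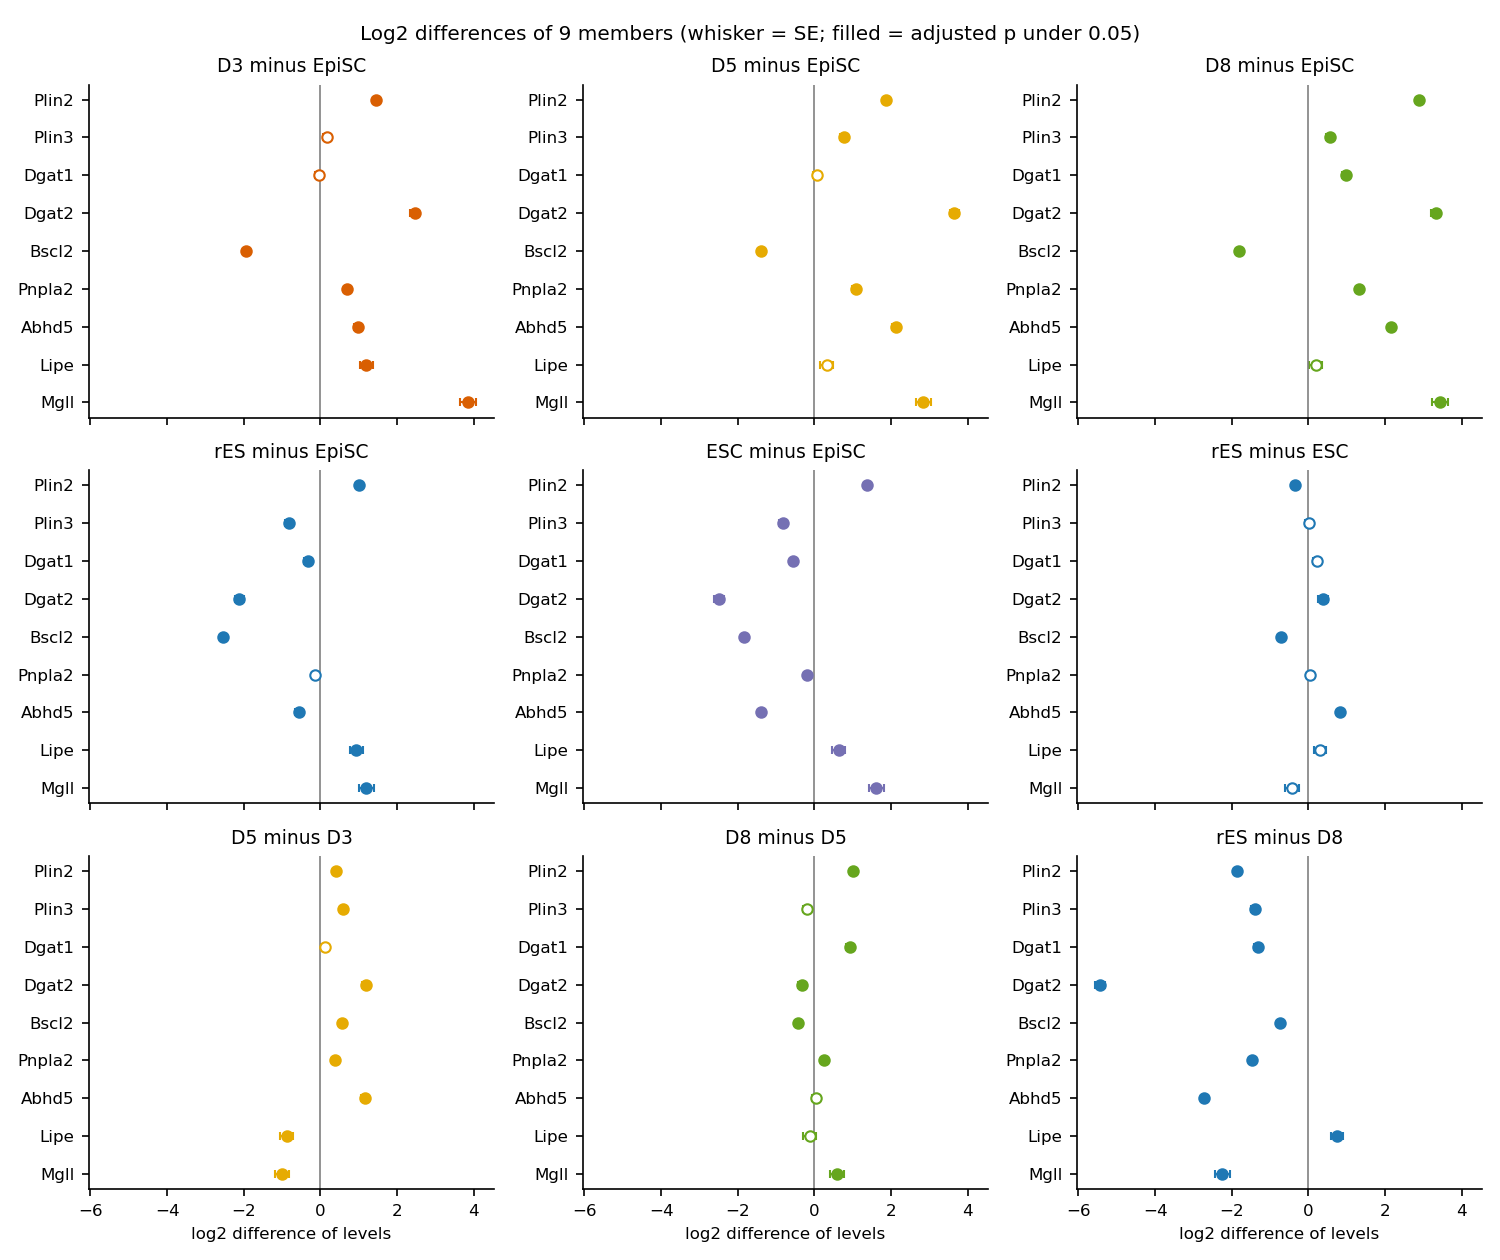
Log2 difference (horizontal axis, with whiskers of 1 standard error) of 9 genes in the 9 comparisons, 1 panel each; Plin4 is left out for its few counts in EpiSC, rES and ESC. Filled points were called and open points were not. Dgat2 and Abhd5 lie above 0 at D3, D5 and D8 and below 0 in rES and ESC against EpiSC, Bscl2 lies below 0 in all 5 panels against EpiSC, and Lipe is the one gene above 0 in rES against D8.

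The highest mean was at D8 for 5 genes (Plin2, Plin4, Dgat1, Pnpla2 and Abhd5), at D5 for Plin3 and Dgat2, at D3 for Lipe and Mgll and in EpiSC for Bscl2. The lowest was in ESC for 5, in EpiSC for 3 and in rES for 2. Of those lowest in ESC, Dgat1 (adjusted p = 0.124), Pnpla2 (0.679) and Plin3 (58.7 CPM in ESC, 58.9 CPM in rES) were not called different from rES. Plin4, lowest in rES and under the floor there, was not called different from ESC (0.251). Lipe, lowest in EpiSC, was not called different from D8 (0.315). Other groups next to each other in these orders were also not called different. Plin3 was not called between D8 and D5 (adjusted p = 0.115), though the libraries did not overlap. Bscl2 was not called between D8 and ESC (adjusted p = 0.901), where 71.1% of all genes tested were called either way. Nor was Bscl2 called between D3 and ESC (0.212, 70.0% of all genes). Mgll was not called between D8 and D3 (0.0516, 67.5%). Its D3 libraries, 27.3 to 28.7 CPM, were nonetheless all above those of D8, 19.0 to 23.7 CPM. Lipe was not called between D3 and rES (0.157, 70.3%) or D5 and ESC (0.0938, 73.6%). Per kilobase of exon, the most abundant of the 10 was Bscl2 in EpiSC (65.5 ± 2.81 CPM per kb), Dgat2 at D3 (50.2 ± 0.513) and D5 (115 ± 4.55), and Plin2 at D8 (108 ± 8.90), in rES (29.8 ± 0.373) and in ESC (38.4 ± 0.721).

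Other genes of the pathway, 38 in all, of which 34 passed the filter, moved in both directions. Against EpiSC, 17 were called higher and 8 lower at D3, 22 and 5 at D5, 25 and 4 at D8, and 10 and 13 in both rES and ESC. Over all genes tested, the shares higher and lower were 34.1% and 30.2%, 37.7% and 34.3%, 42.4% and 34.5%, 31.9% and 37.5% in rES, and 31.2% and 36.1% in ESC, so the rES and ESC counts of 34 were near that background. Their median log2 differences were 0.37, 0.69, 0.79, -0.06 and 0.03, beside the medians over all genes given above. Between rES and D8, 4 were higher (32.7% of all genes tested were) and 25 lower (38.4%), with a median of -1.18 against -0.09. Gpat3, an acyltransferase of the first step from glycerol phosphate, had 0.273 ± 0.114 CPM in EpiSC, where its counts of 13, 13 and 26 were near the floor, 49.5 ± 4.38 at D3, 107 ± 4.44 at D5, 170.1 ± 29.5 at D8, 3.73 ± 0.219 in rES and 1.48 ± 0.287 CPM in ESC. Mogat2, which makes diacylglycerol from monoacylglycerol, had 37.0 CPM at D3 against 2.13 CPM in EpiSC (log2 difference 4.11 ± 0.32, adjusted p = 2.51e-09) and 9.04 CPM at D5. Abhd6, another monoacylglycerol lipase, had 124 CPM at D8 against 7.89 CPM in EpiSC (3.98 ± 0.14, 1.88e-14), and Ldaf1, the partner of seipin, had 48.0 CPM at D5 against 7.88 CPM in EpiSC (2.61 ± 0.11, 2.36e-13). Against EpiSC, D5 was thus higher for Ldaf1 and lower for Bscl2, while against D3 it was higher for both.

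The lysophosphatidate acyltransferase genes (Agpat1 to Agpat5) and the lipin genes supply the middle steps. At D8, Agpat1, Agpat2, Agpat4 and Agpat5 were called higher than in EpiSC and Agpat3 was not called (adjusted p = 0.0545), while in rES Agpat2 and Agpat5 were higher than in EpiSC, Agpat3 and Agpat4 lower and Agpat1 not called (0.939). Agpat2, mutated in human lipodystrophy as BSCL2 is, had 66.8 CPM in rES against 18.9 CPM in EpiSC (1.82 ± 0.10, 2.58e-11), and Agpat4 had 10.7 CPM in rES against 35.8 CPM in EpiSC (-1.74 ± 0.11, 9.77e-11). Of the lipin genes, Lpin2 and Lpin3 were higher and Lpin1 lower at D5 and at D8 than in EpiSC. Lpin1 had 45.2 CPM at D8 against 84.0 CPM in EpiSC (-0.89 ± 0.07, 2.4e-09), and Lpin2 had 85.04 CPM at D8 against 22.4 CPM in EpiSC (1.93 ± 0.11, 1.34e-11). Pnpla3, a relative of Pnpla2, had 28.0 CPM at D8 against 5.17 CPM in EpiSC (2.44 ± 0.15, 6.78e-11). Soat1, which makes the cholesteryl esters that droplets also store, had 10.9 ± 0.366 CPM in rES against 398.6 ± 14.96 CPM in EpiSC (-5.19 ± 0.13, 6.8e-16), and 194 ± 34.3 CPM at D8. Lipa, the lysosomal acid lipase, had 4.16 CPM in rES against 21.3 CPM in EpiSC (-2.35 ± 0.13, 1.79e-11).

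**Figure D4:**
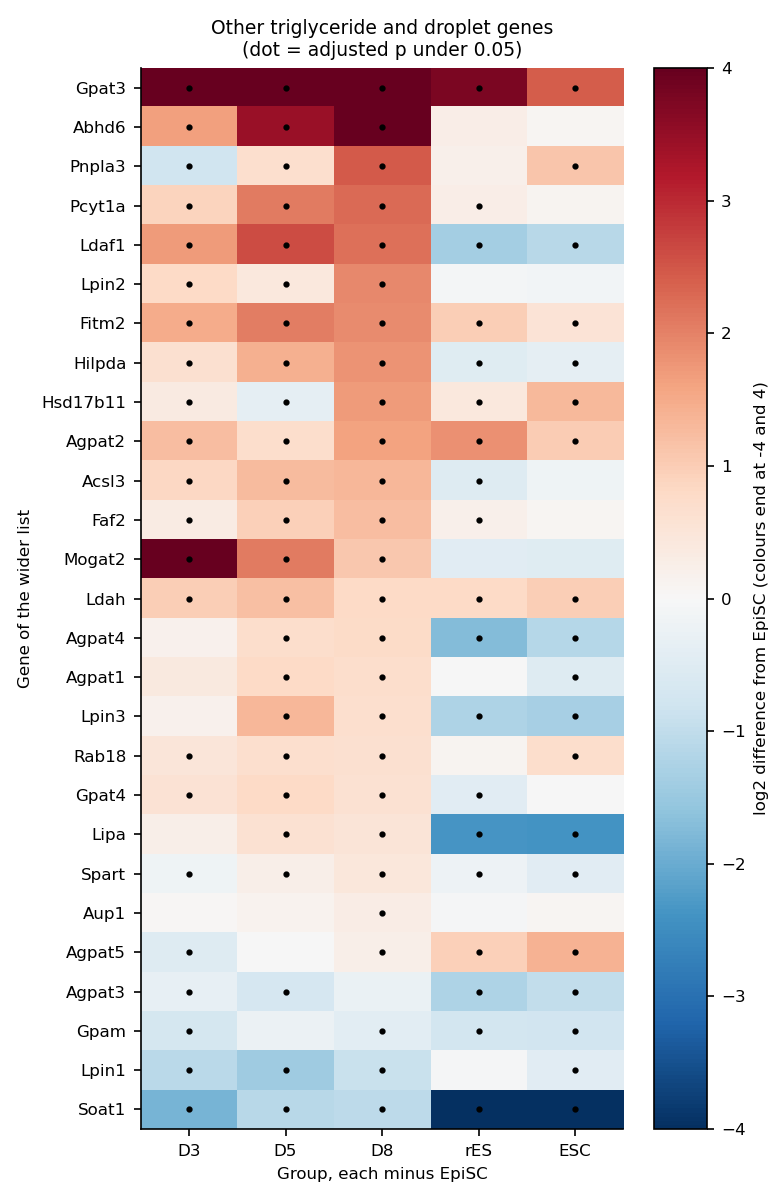
Log2 difference from EpiSC at D3, D5 and D8 and in rES and ESC for the 27 other genes of the pathway with at least 10 CPM in some group, with colours ending at -4 and 4 and a dot where the difference was called. Gpat3 and Abhd6 are the darkest at D8, and Soat1 is lower than EpiSC in every column.

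Among the 10 genes, log2 CPM over the 18 libraries followed most closely for Dgat2 and Abhd5 (Pearson r = 0.973), Pnpla2 and Abhd5 (0.964) and Plin3 and Dgat2 (0.960), and was most opposed for Bscl2 and Lipe (-0.672). The 3 libraries of a group are alike, so these values mainly follow the 6 group means and carry no p. For the search for similar genes, symbols that begin with Gm and a digit or end in Rik were left out. Of the remaining 11066 genes with enough counts, the most similar to Dgat2 were Arhgef16 (r = 0.996), Dsc2 (0.995) and Rnf128 (0.995). The nearest to Abhd5 was Pitpnm2 (0.996), to Pnpla2 Ap2s1 (0.994), to Plin3 Igsf8 (0.987), to Mgll Kdelr3 (0.977), to Plin4 Mir22hg (0.977), to Bscl2 Aldh9a1 (0.970), to Dgat1 Gpr137b (0.969) and to Lipe Plekhg5 (0.946).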

How the data were processed

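The 18 RNA libraries were grouped by their labels. Per the labels' protocols, ribosomal RNA was removed from total RNA by probe-guided RNase H digestion, and the libraries were read as pairs. The submitters' processing notes name bcl2fastq, Trim Galore, HISAT2 and mm10. The values are expected counts, 1 per symbol and library, deposited by the authors unscaled; all were whole numbers. Which program and annotation did the counting, and whether it used strand, is not given in the sources used here. Low counts bunched at 4, with a median of 314.5 genes per library against 157 at 3 and 105.5 at 5. At 8 this was much less clear, with 163 genes against 152.5 at 7 and 109 at 9. With this in view 12 counts were taken as the floor, and division by 4 was an alternative.

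All libraries were fitted together with edgeR 4.0.16 in R 4.3.3 (filterByExpr, TMM, quasi-likelihood F test), and with DESeq2 1.42.0 as an alternative. Compared were each other group with EpiSC, rES with ESC, and each step of the transition with the one before. Pairs of neighbouring groups in a gene's order of levels were added. Standard errors are approximate, the size of the log2 difference over the square root of its F value. Lengths are unions of coding transcripts' exons in GENCODE vM21, which like mm10 is GRCm38. Ratios were tested with an exact permutation test in SciPy 1.17.1. The edgeR fit was tested on simulated counts for ESC against EpiSC. Far fewer genes changed there than were called in the real data, so it cannot check the scaling under such broad change. The other steps were not simulated.

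Members and lists were chosen with earlier results of these data known. Named were all members, by rule the 3 genes of the wider list with the largest called difference each way and at least 10 CPM, some of which the text gives, picked after their values were seen, and the 3 genes most correlated with each member, of which the nearest is given, except for Plin2, where it is not reported here. Alternatives were RLE scaling, no filter, division by 4, a replicate block, only the compared groups, DESeq2, and leaving out each library of those groups. Counts limit precision to counting error and the spread of 3 libraries.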

Additional observations from a re-analysis of the deposited data

How the results depend on the processing

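Of 1078 recomputed values for 90 results (10 genes in 9 comparisons), 1044 kept their direction and their side of the threshold, 29 lost the call, 5 gained it and 0 changed direction. Each library of the compared groups was left out in turn, and the number of the 10 genes called was then as follows. Against EpiSC it ran from 7 to 8 for D3, 8 to 9 for D5 and 9 to 9 for D8. For rES against EpiSC it was 9 to 9, and for ESC against EpiSC 8 to 9. It ran from 3 to 4 for rES against ESC and 9 to 9 for D5 against D3. For D8 against D5 it was 6 to 7, and for rES against D8 10 to 10. With all libraries, 64.2%, 72.0% and 76.8% of all genes tested were called at D3, D5 and D8 against EpiSC. The shares were 69.4% in rES and 67.3% in ESC against EpiSC, and 33.5% for rES against ESC. They were 59.5% for D5 against D3, 47.1% for D8 against D5 and 71.1% for rES against D8. Of the 10 genes, 7 called at D3 and 8 at D5 lie near these shares. The changes of call concern small differences or low counts, and each is given beside its gene above; the cause was not tested. With only the compared groups fitted, Plin4 was not tested between rES and EpiSC or between rES and ESC, because too few libraries then reached the filter. RLE scaling raised rES and ESC against EpiSC by a median of 0.146 and 0.112 over 7163 well-counted genes, so log2 differences of that size in these comparisons depend on the scaling. Same-numbered replicates share only a number: in 45 pairs their deviations from the group means correlated at -0.0607 to 0.0533, and 7 of 18 libraries correlated best with their own number. The fit with a replicate block changed no call of the 10 genes, so that 7, 8, 9, 9 and 10 were called at D3, D5, D8, in rES and in ESC against EpiSC with it as without it. The shares of all genes called without the block are those given above, and the block moved no count over all genes by over 1.5 times. Depth limits Plin4, which is under 12 counts in all but 1 of the rES and ESC libraries.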
